A study of Mus musculus with 4 samples.

Results

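The RGS (regulator of G protein signalling) genes were examined in the mouse colon adenocarcinoma line MC38, in which Mgat5, the gene of a Golgi enzyme that branches N-glycans, had been knocked out by CRISPR-Cas9 or left intact. The set was Rgs2, Rgs3, Rgs4, Rgs5, Rgs10, Rgs12, Rgs14, Rgs16, Rgs17 and Rgs19, found by their symbols in the platform annotation. All 10 were measured, each by 1 probe set, among 19505 named genes and 22206 probe sets. The set was built around Rgs2, which was chosen by its difference in signal between knockout and control, so values of that contrast are given here as a description. RNA was read on 4 arrays of the Clariom S mouse type, a 1-colour oligonucleotide array. The knockout group was clone 1 and clone 2 (titled KO T5 clone 1 and KO T5 clone 2), and the control group was MOCK, MC38 cells with an empty vector, and WT, untransfected MC38 cells. Each group had 2 arrays. The titles call only the knockout cells clones, so effects of cloning and of Mgat5 loss cannot be told apart. No label says that the 2 arrays of a group were biological repeats, so no p-value here measures spread beyond these 4 arrays. The limma p-values and each SE use a moderated variance. It draws the spread of each probe set toward a value shared by all probe sets.

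Receptors coupled to G proteins act by loading GTP onto the alpha subunit of a heterotrimeric G protein, which frees it from its beta and gamma partners. RGS proteins bind the loaded alpha subunit and speed its hydrolysis of GTP, so they shorten the signal. They fall into subfamilies: Rgs2, Rgs3, Rgs4, Rgs5 and Rgs16 belong to the R4 group of mostly small proteins, Rgs10, Rgs12 and Rgs14 to the R12 group, and Rgs17 and Rgs19 to the RZ group. Rgs2 is known for a preference for Gq, the alpha subunit that drives phospholipase C, and its gene is known to be switched on quickly by hormones that raise cAMP or calcium.

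The promoter of Rgs2 is shown because its signal separated the groups most widely among these genes and because cAMP acts on genes through a short element, the CRE. The window is 300 bases long, from 250 before to 50 after the start site, at chr1:144004100-144004399 on the minus strand of GRCm38.p6, from RefSeq. Capitals mark the core of the CRE, the letters TGACG or, on the other strand, CGTCA.

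Rgs2 promoter: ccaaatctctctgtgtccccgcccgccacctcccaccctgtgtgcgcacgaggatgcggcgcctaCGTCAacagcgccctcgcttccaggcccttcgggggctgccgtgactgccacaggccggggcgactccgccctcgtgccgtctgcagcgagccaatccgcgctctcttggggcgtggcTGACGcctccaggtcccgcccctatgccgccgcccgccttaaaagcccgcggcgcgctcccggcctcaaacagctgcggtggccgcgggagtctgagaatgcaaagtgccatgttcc

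The core was present at 185 and 67 bases before the start site, and the window was 70.0% G and C. The same core stood in 20.8% of the 32851 promoter windows of this length in the table, so its presence alone is common. RefSeq windows were matched for 9 of the 10 genes, in 13 windows, and the core was found in 3 of these, those of Rgs2, Rgs4 and Rgs12. The full palindrome TGACGTCA, which contains the core, was in 0 of the 13 windows, against 1.79% of all windows. The GC box GGGCGG, searched on both strands, was found 4 times in the Rgs2 window and in 9 of the 13 windows, against 35.7% of all windows. A match here is a description of letters and not evidence of a bound factor.

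The distribution of signals differed between arrays. The 75th percentile of all probe sets was 9.39 and 9.60 log2 units in clone 1 and clone 2, against 9.26 and 8.87 in MOCK and WT. The median of the difference over all probe sets, knockout minus control, was 0.18 log2 units as deposited and -0.02 after quantile normalization, which gives the 4 arrays 1 distribution. Each difference below is therefore to be read against that shift. As a measure of background, 5222 features named as negative controls were used, whose 75th percentile ran from 6.29 in WT to 6.56 in MOCK. Mgat5 stood at 7.46 and 7.57 in clone 1 and clone 2, against 8.19 and 8.27 in MOCK and WT. It was 0.71 log2 units lower with an SE of 0.37, and did not pass the test (difference -0.71, limma adjusted p = 0.631), and the difference was -1.11 after quantile normalization (limma adjusted p = 0.419). Markers of the labelled tissue were checked as well. None of 8 epithelial markers, Epcam, Cdh1 and Krt8 among them, was above the 75th percentile of the negative controls on any array (0 of 8), while 6 of 6 mesenchymal markers were above it on all 4. Markers of leukocytes (6 measured) and endothelium (5 measured) were above it on 0 arrays. Of 5 fibroblast markers measured, 1 was above it on all 4 arrays and 3 on no array, and 0 passed the limma test. The highest signal of any fibroblast marker on an array was 8.94 in clone 1 and 11.18 in clone 2, against 12.95 in MOCK and 13.61 in WT. The list did not share that direction, since 3 of the 5 differences were positive. Their median was 0.49 log2 units as deposited and 0.42 after quantile normalization. At an unadjusted limma p under 0.05, 0 were higher and 1 was lower, beside 7.54% and 1.22% of all probe sets.

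Probe sets differ in how brightly they read, so each gene was compared with itself across arrays and with the negative controls, not with other genes. Rgs3, Rgs10, Rgs17 and Rgs19 were above the 75th percentile of the negative controls on all 4 arrays. Rgs2 was above it in both clones and in neither control. The other 5, Rgs4, Rgs5, Rgs12, Rgs14 and Rgs16, were above it on no array, and for these no fold is given.

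**Figure D1:**
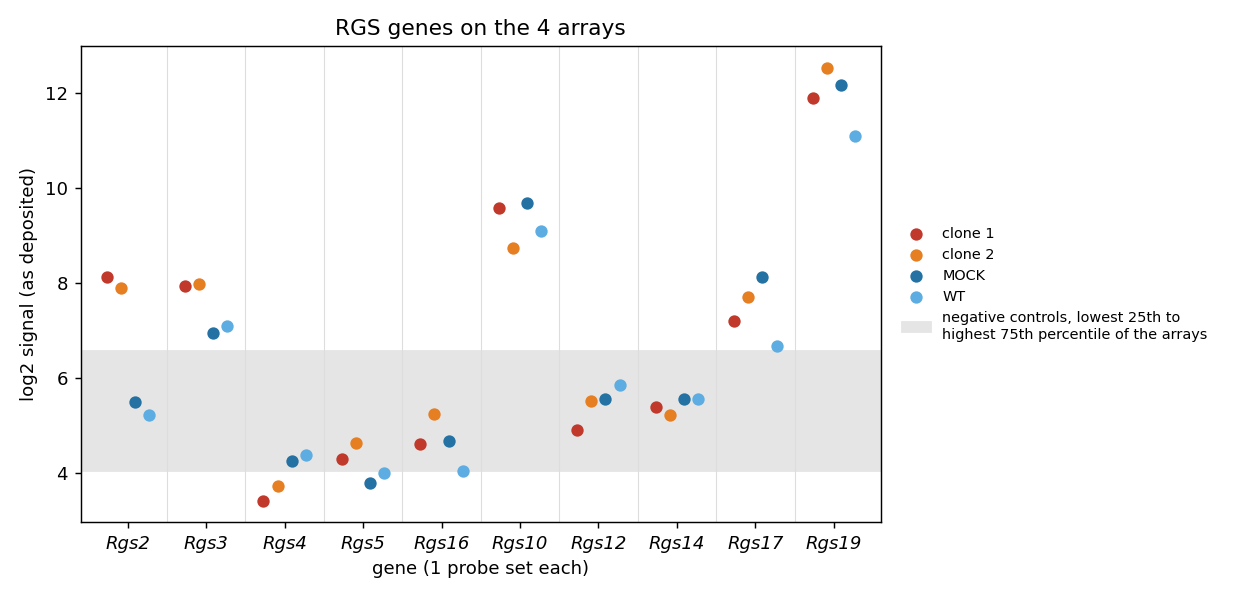
Log2 signal as deposited of the 10 RGS genes on the 4 arrays, 1 point per array. The grey band runs from the lowest 25th to the highest 75th percentile of the negative control features over the arrays. Rgs2 lies within the band in MOCK and WT and near 8 log2 units in both clones (8.12 and 7.90), and 5 genes lie at or below the band's upper edge on every array.

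Rgs2 had a log2 signal of 8.12 in clone 1 and 7.90 in clone 2, against 5.49 in MOCK and 5.22 in WT. Both clones were high and both controls low, and the groups did not overlap. The mean was 8.01 ± 0.15 in the clones and 5.35 ± 0.19 in the controls (SD, n = 2 each), a difference of 2.65 log2 units or 6.29-fold. Among the negative control features, the clone values exceeded 91.7% and 90.1%, and the MOCK and WT values exceeded 55.6% and 52.5%. Because the control signals were within the range of the negative controls, the fold can also be set against their 75th percentile, and on that reading Rgs2 was at least 2.99-fold higher in the clones. Each array reads RNA of a whole culture, so more cells with the transcript and more transcript per cell cannot be told apart.

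The 4 differences between a single clone and a single control were close to one another for Rgs2. Clone 1 exceeded MOCK by 2.63 and WT by 2.89 log2 units, and clone 2 exceeded them by 2.41 and 2.68. The clones differed from each other by -0.22 (clone 2 minus clone 1), and MOCK differed from WT by 0.26. After quantile normalization Rgs2 stood at 8.03 in clone 1 and 7.63 in clone 2, against 5.50 in MOCK and 5.34 in WT, a difference of 2.41 log2 units.

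Rgs3, another R4 member with several long and short isoforms, acts on Gi and Gq alpha subunits. Its signal was 7.94 in clone 1 and 7.98 in clone 2, against 6.95 in MOCK and 7.09 in WT. Both clones were above both controls, and the arrays of a group lay within 0.14 log2 units of each other. The mean was 7.96 ± 0.03 in the clones and 7.02 ± 0.10 in the controls (SD, n = 2 each), a difference of 0.94 log2 units or 1.92-fold. After quantile normalization the values were 7.84 and 7.71 in the clones, against 7.02 and 7.42 in MOCK and WT, and the difference was 0.56. The groups still did not overlap, but the gap between the lower clone and the higher control narrowed to 0.29, against 0.85 as deposited.

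The other R4 members lay in the range of the negative controls. Rgs4, a brake on Gi and Gq signalling best known in brain and heart, stood at 3.42 and 3.73 in clone 1 and clone 2, against 4.26 and 4.37 in MOCK and WT. Both clones were lower, at signals that exceeded only 12.3% and 16.3% of the negative controls. Rgs5, a gene used as a marker of pericytes, stood at 4.29 and 4.63 in the clones, against 3.79 and 4.003 in MOCK and WT. Both clones were higher, and all 4 values were below the median of the negative controls. Of the 6 smooth muscle and pericyte markers, 5 were above the 75th percentile of the negative controls on no array and Pdgfrb, a growth factor receptor, was above it on all 4. Pdgfrb stood at 11.70 in clone 1 and 12.02 in clone 2, against 11.47 in MOCK and 11.42 in WT. Of the 6 markers, 3 were above and 1 below both controls in both clones, beside 27.8% and 11.7% of all probe sets. Any part of such cells in the Rgs5 values was not tested. Rgs16, an inducible brake on Gi and Gq, stood at 4.62 and 5.24 in the clones, against 4.68 and 4.04 in the controls, and the groups overlapped as deposited.

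In the R12 group, Rgs10, a small protein that acts on Gi alpha subunits, was well measured. It stood at 9.57 in clone 1 and 8.74 in clone 2, against 9.67 in MOCK and 9.09 in WT. Clone 2 was the lowest of the 4 arrays and clone 1 lay between the controls. The mean was 9.16 ± 0.59 in the clones and 9.38 ± 0.42 in the controls (SD, n = 2 each), and the difference of -0.22 log2 units was smaller than either spread. After quantile normalization the values were 9.45 and 8.44 in the clones, against 9.67 and 9.52 in MOCK and WT, so clone 2 alone was more than 1 log2 unit below both controls (-1.23 for clone 2 minus MOCK and -1.08 for clone 2 minus WT). Rgs12 and Rgs14, larger scaffolds that also bind Ras-like proteins, stayed within the range of the negative controls. Rgs12 stood at 4.90 and 5.52 in the clones, against 5.55 and 5.85 in MOCK and WT, with clone 2 and MOCK only 0.03 apart. Rgs14 stood at 5.39 and 5.22 in the clones, against 5.55 in both MOCK and WT.

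The RZ members were above background on every array and did not separate the groups. Rgs17, which acts on Gz and Gi, stood at 7.19 in clone 1 and 7.69 in clone 2, against 8.11 in MOCK and 6.67 in WT. The controls were the highest and the lowest of the 4 arrays, 1.44 log2 units apart, and both clones lay between them. The difference in means was 0.05 as deposited and -0.30 after quantile normalization, so its sign depends on the scaling. Rgs19, first described as a partner of Gi alpha, stood at 11.88 in clone 1 and 12.53 in clone 2, against 12.17 in MOCK and 11.09 in WT. WT was the low array, MOCK lay between the clones, and the difference of 0.58 shrank to 0.14 after quantile normalization.

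Over the 10 genes, the limma test over all probe sets called 0 at an adjusted p under 0.05, beside 0.0405% of all probe sets, and 0 after quantile normalization, beside 0.0045%. As deposited 2 genes, Rgs2 and Rgs3, had an unadjusted p under 0.05, beside 8.75% of all. Both clones were above both controls for 3 genes (Rgs2, Rgs3 and Rgs5), where 27.8% of all probe sets had that order, and below both for 3 (Rgs4, Rgs12 and Rgs14), where 11.7% had it. After quantile normalization these counts were 4 and 4, beside 19.2% and 21.3% of all probe sets. The median difference over the 10 genes was 0.31 log2 units as deposited and -0.08 after quantile normalization, close to the medians of all probe sets, 0.18 and -0.02. Nothing is read from these counts, since the same contrast chose the set. Rgs2 was the single gene of the 10 with a difference of at least 1 log2 unit on either scale, beside 7.21% of all probe sets as deposited and 4.98% after quantile normalization.

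**Figure D2:**
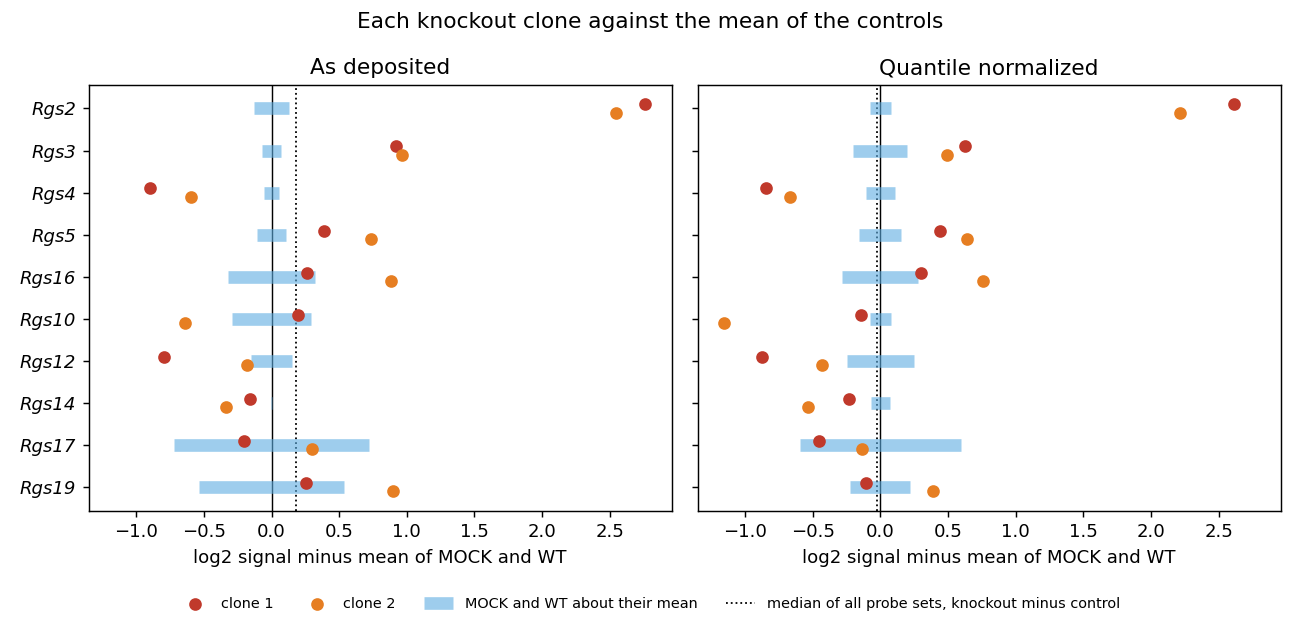
Log2 signal of each clone minus the mean of MOCK and WT for the 10 RGS genes, as deposited on the left and after quantile normalization on the right. Blue bars show how far MOCK and WT lie from their own mean, and the dotted line is the median difference of all probe sets. Rgs2 lies more than 2 log2 units from the controls in both clones on both scales, and the Rgs17 points lie inside the control bar.

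Between the single arrays, which allow no test, 0 of the 10 genes differed by at least 1 log2 unit between clone 2 and clone 1 as deposited, where 12.7% of all probe sets did. The widest gap was that of Rgs10, at -0.83 (clone 2 minus clone 1). After quantile normalization Rgs10 was 1 such gene, at -1.01, beside 11.3% of all. MOCK and WT were at least 1 log2 unit apart for 2 genes as deposited, Rgs17 at 1.44 and Rgs19 at 1.08 (MOCK minus WT), where 10.1% of all probe sets were. After quantile normalization 1 remained, Rgs17 at 1.19, beside 4.52% of all.

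The rest of the RGS family gave no signal above background. The 13 other family genes and binding partners measured were above the 75th percentile of the negative controls on 0 arrays, and 11 of them did not exceed the median of these controls on any array. Their differences had a median of 0.11 log2 units. In the limma test 0 of 13 passed in either direction, beside 0.0405% of all probe sets. At an unadjusted p under 0.05 there were also 0, beside 8.75%, and nothing is read from these counts. Rgs9, the retinal and striatal member, stood at 4.57 and 5.53 in clone 1 and clone 2, against 4.75 and 4.42 in MOCK and WT. Rgs8, a neuronal R4 member, stood at 4.54 and 5.10, against 5.13 and 5.20.

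Rgs2 lies on chromosome 1 beside other R4 genes, and its neighbours were examined in the RefSeq gene order. On one side the 5 nearest measured genes were Rgs13, Rgs1, Rgs21, Rgs18 and Brinp3, and on the other Uchl5, Ro60, Glrx2, B3galt2 and Cdc73. Rgs1, a brake found mainly in lymphocytes, stood at 3.65 and 4.49 in clone 1 and clone 2, against 3.33 and 3.92 in MOCK and WT. Rgs13 stood at 3.45 and 4.21, against 4.39 and 4.85. The well measured gene Uchl5, a proteasome-bound deubiquitinase and the nearest gene on its side, stood at 13.00 and 12.37, against 12.65 and 11.72, and its groups overlapped. The 10 neighbours had a median difference of 0.20 log2 units, from -1.85 for Brinp3 to 0.74 for Cdc73, against 2.65 for Rgs2. In both clones 3 were above and 1 below the controls, near the 27.8% and 11.7% of all probe sets. In limma 0 of the 10 passed, beside 0.0405% of all probe sets.

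Rgs3 lies on chromosome 4 between 4933430I17Rik and Zfp618. Its 10 neighbours had a median difference of 0.12 log2 units, from -0.35 to 0.88, against 0.94 for Rgs3. Here too 3 neighbours were above and 1 below the controls in both clones, near the 27.8% and 11.7% of all probe sets. The limma test passed 0 of them, beside 0.0405% of all. Pole3, a DNA polymerase epsilon subunit, stood at 10.12 and 11.08 in clone 1 and clone 2, against 10.19 and 9.26 in MOCK and WT, and Alad, an enzyme of haem synthesis, at 8.84 and 9.25, against 8.52 and 8.22. Pole3 and Alad were the only neighbours of Rgs3 above the 75th percentile of the negative controls on all 4 arrays. For the other 8 RGS genes, the median difference of the 10 neighbours ran from -0.15 around Rgs19 to 0.48 around Rgs4.

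**Figure D3:**
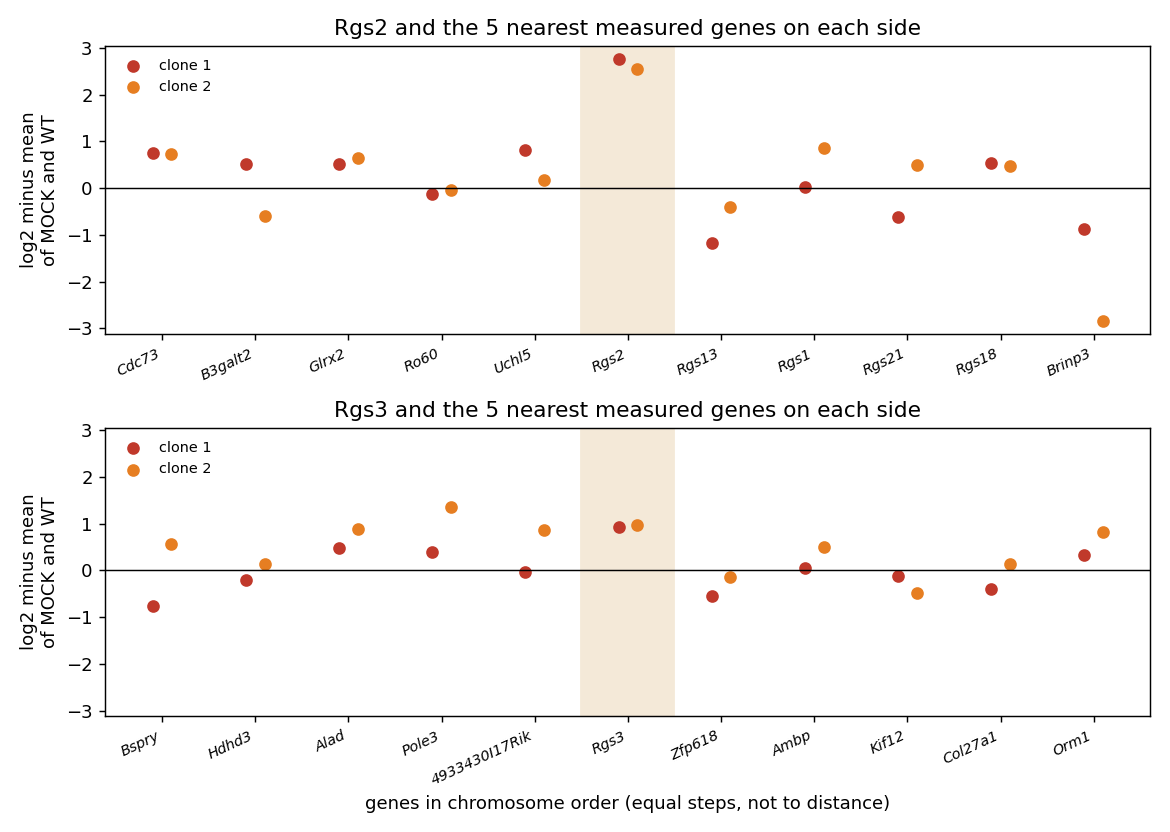
Log2 signal of each clone minus the mean of MOCK and WT for Rgs2 (upper panel) and Rgs3 (lower panel) and the 5 nearest measured genes on each side, in chromosome order at equal steps. Rgs2 stands at 2.76 and 2.54 in clone 1 and clone 2, above each of its neighbours, and Brinp3 is the lowest at -1.85 on average.

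The genes whose 4 values, each centred on the gene's mean, lay closest to those of Rgs2 were ranked by root mean square distance over the 4 arrays, among 10463 genes with a mean above the median of the negative controls. The nearest were the predicted gene Gm5169 at 0.20 log2 units, the drug efflux transporter Abcg2 at 0.22, the gene Rnd1 at 0.23, the cell cycle inhibitor Cdkn1a at 0.25 and the predicted gene Gm5168 at 0.25. Rnd1 stood at 10.51 and 9.81 in clone 1 and clone 2, against 7.71 and 7.04 in MOCK and WT. Cdkn1a stood at 12.57 and 12.99, against 10.52 and 10.10. Gm5169 and Gm5168 are both on the X chromosome. With 4 arrays a shared pattern says little more than that both clones were above both controls by a like amount.

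The partners of RGS proteins were described from lists of G protein subunits, effectors, receptors and regulators. The other RGS family genes and a list of cAMP-responsive genes were counted with them, and all are called the G protein lists below. Over these 8 lists with 117 measured genes, 0 passed the limma test, beside 0.0405% of all probe sets. At an unadjusted p under 0.05, 10 were higher and 1 lower, beside 7.54% and 1.22% of all. Of the 10 higher, 4 were cAMP-responsive genes. The median difference over all 117 genes was 0.23 log2 units as deposited and 0.02 after quantile normalization, close to the medians of all probe sets.

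**Figure D4:**
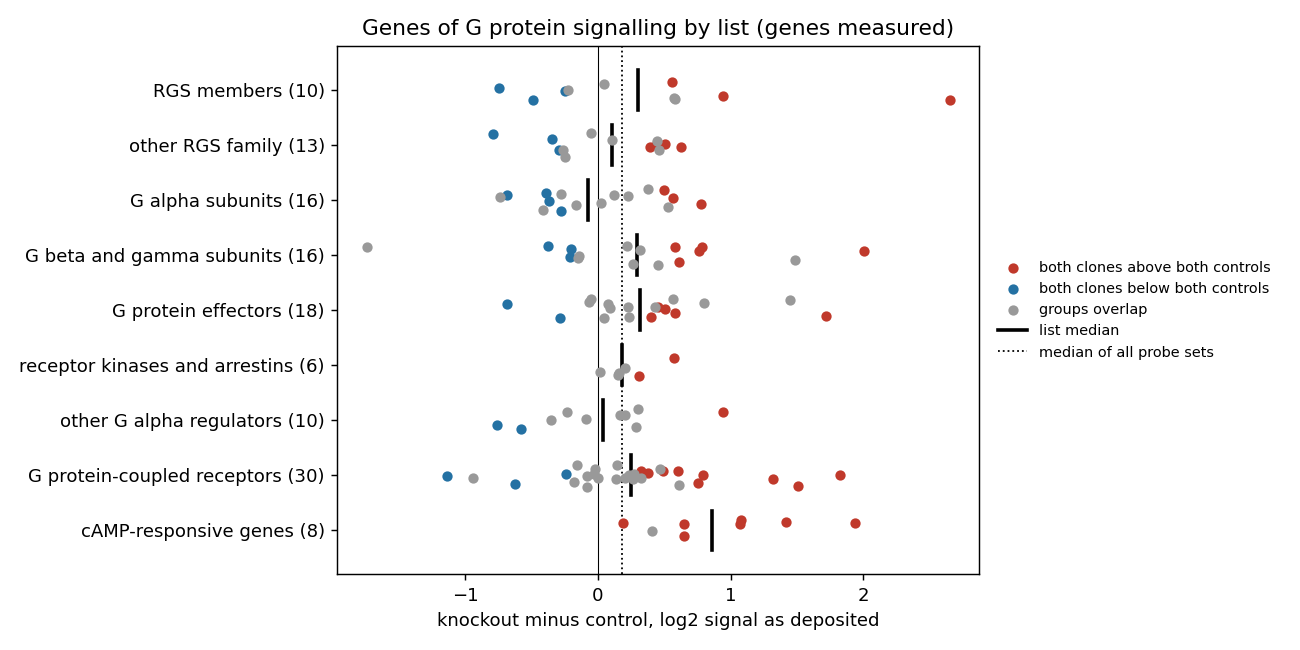
Difference in log2 signal as deposited, knockout minus control, for each measured gene of the RGS set and of the 8 G protein lists. These include the other RGS family and the cAMP-responsive genes. Each point is 1 gene, with a black bar at each list's median and a dotted line at the median of all probe sets. The cAMP-responsive genes have the highest list median, 0.86, and Rgs2 is the point farthest to the right at 2.65.

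Of 16 alpha subunits, the direct substrates of RGS proteins, 0 passed in either direction (limma adjusted p from 0.648). As deposited 3 were above and 4 below the controls in both clones, beside 27.8% and 11.7% of all probe sets, and after quantile normalization 0 were above and 7 below, beside 19.2% and 21.3%. Gnas, which stimulates adenylyl cyclase, stood at 14.96 and 15.47 in clone 1 and clone 2, against 14.84 and 14.03 in MOCK and WT. Gnai3, an inhibitory subunit, stood at 12.61 and 12.53, against 12.27 and 11.88, and Gna13 at 11.22 and 12.04, against 11.13 and 10.99. The largest differences were thus under 1 log2 unit, and after quantile normalization those of Gnas, Gnai3 and Gna13 were 0.27, 0.02 and 0.12. Gnaz stood at 5.56 and 4.21, against 4.88 and 3.83, within the range of the negative controls. Gnaq and Gna11 are outside the naming rule and are shown as subunits of the Gq type, on which Rgs2 acts. Gnaq stood at 9.72 and 10.35 in the clones, against 10.39 and 10.46 in the controls, and Gna11 at 12.40 and 12.45, against 13.06 and 12.34. Their differences were -0.39 and -0.28 log2 units as deposited and -0.83 and -0.77 after quantile normalization (limma adjusted p = 0.543 and 0.526). On that scale both clones were below both controls for each. The inhibitory subunit Gnai2 had the same order there, and all of these are among the 7 of 16 above.

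Of 16 beta and gamma subunits, 0 passed, with 5 above and 3 below in both clones, beside 27.8% and 11.7% of all probe sets. After quantile normalization 2 were above and 5 below, beside 19.2% and 21.3%. Gng8, a gamma subunit known from neurons, stood at 5.79 and 6.36 in clone 1 and clone 2, against 4.31 and 3.83 in MOCK and WT (limma adjusted p = 0.137). Both clones were higher, but all 4 values were below the 75th percentile of the negative controls. For 2 gamma subunits the clones were more than 3 log2 units apart. Gng10 stood at 5.72 in clone 1 and 9.67 in clone 2, against 5.86 and 6.55 in the controls, and Gng2 at 10.24 in clone 1 and 7.08 in clone 2, against 10.02 and 10.78. In both, clone 1 was near the controls and clone 2 was not. Gngt2 stood at 5.29 and 5.81, against 5.07 and 4.46.

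Of 18 effectors, 0 passed, with 5 above and 2 below in both clones, near the 27.8% and 11.7% of all probe sets. Plcb1, a phospholipase C that Gq activates, stood at 9.20 and 9.34 in clone 1 and clone 2, against 7.59 and 7.51 in MOCK and WT. Both clones were higher, by 1.72 log2 units (SE 0.37, limma adjusted p = 0.170) and by 1.31 after quantile normalization. Plcb4, of the same family, stood at 7.54 in clone 1 and 10.64 in clone 2, against 7.18 and 8.10, so it was high in clone 2 alone. Pik3r5, a regulatory subunit of a phosphoinositide kinase, stood at 5.53 and 7.42, against 5.23 and 6.11, and the cyclase Adcy6 at 8.01 and 9.04, against 8.08 and 7.83.

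Receptor kinases and arrestins, which switch off receptors, gave 0 called of 6 measured, beside 0.0405% of all probe sets. Arrb1, an arrestin, stood at 8.47 in clone 1 and 6.75 in clone 2, against 7.08 in MOCK and 8.10 in WT, with no order by group. Grk6 stood at 8.67 and 8.80, against 8.67 and 8.19, Grk4 at 5.45 and 5.75, against 5.03 and 5.02, and Grk5 at 5.52 and 6.31, against 5.57 and 5.94. Of 10 other regulators of alpha subunits 0 passed, beside the same share. Axin1, a Wnt scaffold with an RGS-like domain, stood at 9.67 and 9.46 in the clones, against 8.75 and 8.49 in MOCK and WT, both clones higher by 0.94 log2 units on average (SE 0.37, limma adjusted p = 0.512). Ric8b, a chaperone of Gs alpha subunits, stood at 9.12 and 9.55, against 10.01 and 9.82, both clones lower. Gpsm3 stood at 5.12 and 4.23, against 5.53 and 5.33, and the chaperone Ric8a at 6.54 and 7.71, against 7.31 and 7.65.

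Of 30 receptors measured, 0 passed, with 10 above and 3 below in both clones, near the 27.8% and 11.7% of all probe sets. On all 4 arrays 6 were above the 75th percentile of the negative controls. Lpar1, a receptor for lysophosphatidic acid, stood at 11.65 and 11.89 in clone 1 and clone 2, against 10.30 and 10.21 in MOCK and WT (difference 1.51, SE 0.37, limma adjusted p = 0.239). Lpar6, of the same ligand, stood at 8.67 and 9.13, against 7.73 and 7.43 (difference 1.32, SE 0.39, limma adjusted p = 0.353). Both clones were above both controls for each, also after quantile normalization, at differences of 1.08 and 0.91. Lpar4 instead stood at 10.11 in clone 1 and 4.39 in clone 2, against 8.98 and 7.41, so the clones lay on opposite sides of the controls. Ackr3, a chemokine receptor that signals through arrestin, stood at 8.88 and 9.36, against 6.89 and 7.69 (difference 1.83, SE 0.42, limma adjusted p = 0.209).

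Genes known to respond to cAMP were listed because Rgs2 is one of their kind, with earlier results of these data known. Of 8 measured, 7 were above both controls in both clones, where 27.8% of all probe sets had that order, and 5 after quantile normalization, where 19.2% had it. Of the 8, 2 were above the 75th percentile of the negative controls on all 4 arrays and 2 on no array. The median difference was 0.86 log2 units, or 0.54 after quantile normalization, and 0 passed the limma test (4 had an unadjusted p under 0.05, all higher, where 7.54% of all probe sets had one and were higher). Pde4b, a phosphodiesterase that breaks down cAMP, stood at 7.06 and 6.67 in clone 1 and clone 2, against 4.90 and 4.95 in MOCK and WT (difference 1.94, SE 0.38, limma adjusted p = 0.121). As with Rgs2, the clones were above the 75th percentile of the negative controls and the controls were below it. The nuclear receptor genes Nr4a2 and Nr4a3 stood at 10.39 and 9.87, against 9.02 and 9.08, and at 6.11 and 5.77, against 4.47 and 4.58. Nr4a3 was below the 75th percentile of the negative controls on each array. The kinase gene Sik1 stood at 6.88 and 7.63, against 6.12 and 6.25. Several of these genes also respond to serum, stress and calcium, and the list was not set apart from other genes by any test.

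**Figure D5:**
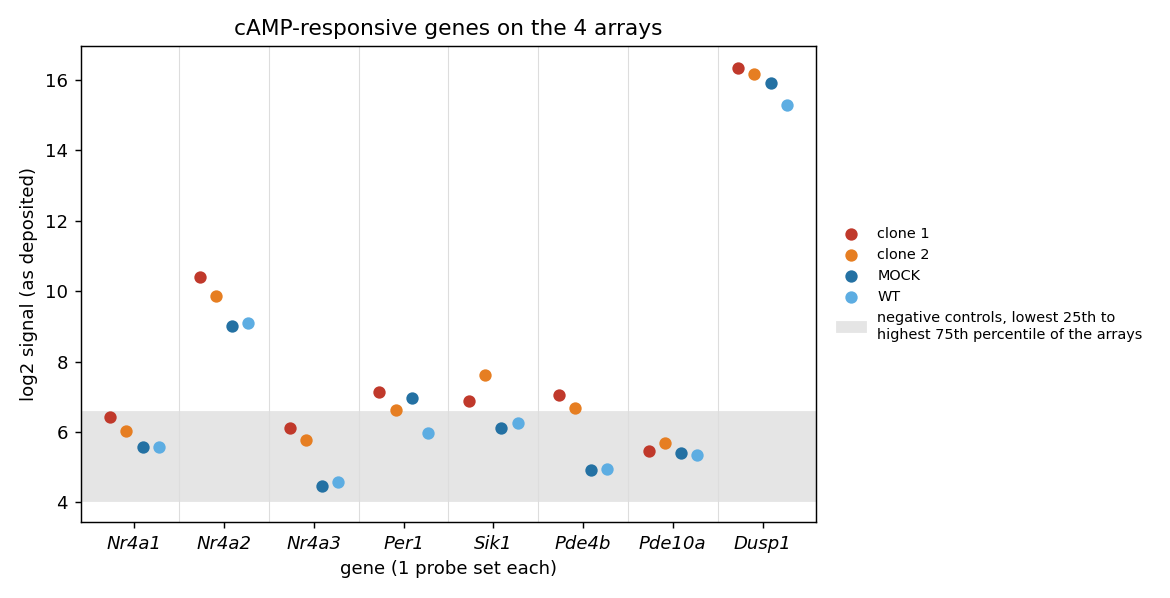
Log2 signal as deposited of the 8 measured cAMP-responsive genes on the 4 arrays, 1 point per array. The grey band runs from the lowest 25th to the highest 75th percentile of the negative control features over the arrays. Both clones lie above both controls for each gene but Per1, and the gaps are widest for Pde4b and Nr4a3. Nr4a3 lies inside the band on every array.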

How the data were processed

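RNA of 4 MC38 samples was read on 1 Clariom S mouse array each. The authors processed them with the Transcriptome Analysis Console, per the submitters' processing notes. Its version and its normalization and summarisation steps are not stated there. The deposited values are log2 signals per probe set, a scale read from their range. Groups follow the sample titles, since a cell label names the knockout on all 4 samples. Of 28846 features, 6640 control features were left out and 22206 probe sets kept without a filter. Names came from the platform annotation and, by Entrez identifier, from RefSeq (GRCm38.p6), with 19572 probe sets matched and 0 symbols changed. Where a gene had several probe sets, the one with the highest mean stood for it.

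Knockout minus control was fitted with limma 3.58.1 under R 4.3.3 (lmFit, eBayes, Benjamini-Hochberg over 22206 probe sets, called at an adjusted p under 0.05), which was tested on simulated data. Precision is limited by the number of arrays, 2 in each group. Alternatives were quantile normalization, median centring, filters on dim probe sets, eBayes with trend and robust, array weights and leaving out each array. The genes and lists were chosen with earlier results of these data known. Named were all 10 RGS genes, up to 4 genes per list with the largest difference and at least 1 array above the median of the negative controls, the 5 genes nearest to Rgs2 in pattern, and the 5 nearest measured genes on each side. Further genes of the lists were not analysed here.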

Additional observations from a re-analysis of the deposited data

How the results depend on the processing

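For the RGS genes, limma called 0 of 10 as deposited, after quantile normalization and after median centring. It called 1, Rgs2, of the 7 genes left by the filter at the median of the negative controls. The same call came among the 6 left by the filter at the median of all probe sets. With trend and robust, and with array weights, Rgs2 was called among all 10. With array weights the limma adjusted p of Rgs2 was 0.0492, just under the cut. The weights were equal within each group, so no difference could change under them. The filters use the mean of all 4 arrays. Pde4b passed both, and Rgs2 that at the median of all probe sets, only through the clones where they are high, so those calls are no support. With 1 array left out, the Rgs2 difference was 2.54 log2 units without clone 1, 2.76 without clone 2, 2.78 without MOCK and 2.52 without WT. Those fits have 1 array in an arm, which is assumed to vary like the other group's 2 arrays. The limma adjusted p of Rgs2 was 0.0523 as deposited and ran from 1.09e-05 with trend and robust to 0.906 without WT, while its difference stayed between 2.41 and 2.78 log2 units. The sign of the difference held for 8 of the 10 genes under the normalizations and each array left out. Rgs10 turned to positive, at most 0.19, without clone 2 or without MOCK, and Rgs17 ran from -0.67 to 0.77. Over all probe sets the count of calls was 9, and 1 after quantile normalization, 210 and 196 with the filters, 340 with trend and robust, and 0 to 529 with 1 array left out (0 without WT, 1 without MOCK, 149 without clone 2, 529 without clone 1). For the G protein lists the count was 0 of 117 genes as deposited, and 4 of 117 with trend and robust (Ackr3, Gng8, Pde4b and Plcb1). In the same order of filters it was 2 of 61 (Ackr3 and Pde4b) and 1 of 55 (Pde4b). The cause of these shifts was not tested. For Rgs2 the lower p-values under trend and robust and under the filters did not go with a smaller SE. Its difference was 2.65 in each of these fits. The SE was 0.376 as deposited, 0.472 under trend and robust, and 0.549 (negative-control filter) and 0.553 (all-probe-set filter). The unadjusted limma p of Rgs2 was 2.72e-05, 1.91e-08, 1.33e-06 and 1.59e-06 in the same order. Probe sets at least 1 log2 unit apart between MOCK and WT numbered 2232, or 1004 after quantile normalization. Every RGS gene has 1 probe set, so averaging probe sets changed nothing. No paired analysis was possible because the labels number the clones and not the controls. Signals within the range of the negative controls limit what can be said of Rgs4, Rgs5, Rgs12, Rgs14 and Rgs16 on all arrays, and of Rgs2 in the controls.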
